A study of Mus musculus with 12 samples.

Results

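Hair keratins are the intermediate filament proteins of the hair shaft, and keratin-associated proteins (KAPs) are the small proteins that fill the space between those filaments and crosslink them. Type I hair keratins pair with type II hair keratins, the root sheath keratins build the inner sheath and the companion layer that surround the growing shaft, and KAPs are sorted by composition into high glycine-tyrosine, high sulfur and ultrahigh sulfur proteins. These genes are transcribed while a follicle is in its growth phase (anagen) and are switched on in sequence as matrix cells move up the shaft, the sheath keratins and Krt35 early and most KAPs late. They fall silent in regression and rest (catagen and telogen), and in young adult mice the back skin passes through these phases in waves.

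The genes described here were selected by name and by count. Protein-coding genes whose symbol starts with Krtap, or is Krt followed by 31 to 40, 71 to 75 or 81 to 86, were kept where 10 or more reads were counted in at least 3 of the 12 libraries. Of 75 protein-coding genes with such names, 48 met the count rule, out of 56923 genes in the count table. They were 8 of 9 type I hair keratins, all 5 type II hair keratins, all 4 root sheath keratins (Krt71, Krt72, Krt73 and Krt75), 6 of 19 high glycine-tyrosine KAPs, 14 of 21 high sulfur KAPs and 11 of 17 ultrahigh sulfur KAPs. Just inside the rule lay Krtap26-1, Krtap10-4 and Krtap28-13, with 10, 11 and 11 reads in the library that ranked the third for that gene. Just outside it lay Krtap4-13 and Krtap6-2, with 9 reads each, and Krtap2-4 with 7. Because the rule used the counts themselves, sums over the members and the number of members that passed a test are given as descriptions.

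Back skin of 12 females, 8 to 10 weeks old, was profiled by bulk RNA-seq, with 3 mice in each of 4 groups. The labels give the controls as untreated and the mutants as a knockdown, and the study's methods describe vehicle cream and a knockout. Wild-type (WT) mice and mice labelled Lcn2-/-, which are meant to lack lipocalin 2 throughout the body, received either 5% imiquimod (IMQ) cream or a vehicle cream on shaved back skin daily for 6 days. The Lcn2-/- line is on the C57BL/6 background and its WT controls were described as littermates. IMQ activates Toll-like receptor signalling and gives a skin inflammation that serves as a model of psoriasis, which limits these groups to an acute, topical model. The groups are called WT control, WT IMQ, Lcn2-/- control and Lcn2-/- IMQ, and each mouse is named by its group and its number. No label gives a hair cycle phase, and none was assigned to a mouse.

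Levels are CPM, counts scaled to a common library size after TMM normalization, and library totals lay between 16448226 and 28592110 counts. Lcn2 was counted in every library, at 4.57 to 8.63 CPM in WT control, 9.21 to 15.9 CPM in Lcn2-/- control, 61.1 to 183 CPM in WT IMQ and 29.8 to 49.7 CPM in Lcn2-/- IMQ mice. The data hold 1 count for the whole gene, so they do not show which exons these reads cover or whether an intact transcript is made. The paper reports Lcn2 among the genes lower in Lcn2-/- than in WT skin after IMQ. Whether the gene was lost in these mice was not tested, so the genotype is used here only as a label. The extraction text names retinas, but the photoreceptor genes Crx and Nrl were at 0 in all 12 libraries and the 8 retina genes together reached at most 3.03 CPM, whereas the epidermal keratin Krt14 lay between 1152 and 16970 CPM. In bulk skin, fewer cells of a type and less RNA per cell cannot be told apart.

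The members lie mostly in 3 gene clusters. In the GENCODE M21 annotation of GRCm38, 25 members lie within 568 kb of chromosome 11 (99537485 to 100105626), all 8 type I hair keratins and 17 KAPs among them. A stretch of 343 kb of chromosome 15 (101459061 to 101802346) holds the 5 type II hair keratins and the 4 root sheath keratins. A stretch of 960 kb of chromosome 16 (88610705 to 89571183) holds 11 KAPs, and the remaining 3 KAPs lie on chromosomes 1, 7 and 10. Copies in these clusters resemble each other, and in 11 of the 48 members more than 10% of the 100-base words of the transcripts also occur in transcripts of another gene. Counts of Krt31, Krt34, Krt81, Krt86, Krtap3-2, Krtap3-3, Krtap4-8, Krtap6-1, Krtap9-1, Krtap10-4 and Krtap15 are uncertain to that extent. Krtap14 and Krtap15 overlap on opposite strands, and whether reads were counted by strand is not given in the sources used here.

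The bases just before the start of 4 members are shown because these members stand for the patterns described next. Krt71 is the most abundant sheath keratin, Krt31 a keratin of the hair cortex, Krtap8-1 a high glycine-tyrosine KAP, and Krt84 the member called higher under IMQ. Each run is the 250 bases before the annotated start, 5′ to 3′ on the strand of the gene, from RefSeq for GRCm38.p6. Capitals mark matches to TATAAA (the TATA box), CTTTGNT (the core bound by LEF1 and TCF proteins), CAATAAA (a word of the kind bound by HOX proteins) or CTCGTAAA (likewise), searched on both strands.
Krt71, chr15:101743098-101743347, minus strand: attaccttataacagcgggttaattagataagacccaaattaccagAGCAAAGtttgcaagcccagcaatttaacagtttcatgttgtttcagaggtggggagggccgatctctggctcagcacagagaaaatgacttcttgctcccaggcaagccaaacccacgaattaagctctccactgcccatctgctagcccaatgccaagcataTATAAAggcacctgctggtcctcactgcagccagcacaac
Krt31, chr11:100050552-100050801, minus strand: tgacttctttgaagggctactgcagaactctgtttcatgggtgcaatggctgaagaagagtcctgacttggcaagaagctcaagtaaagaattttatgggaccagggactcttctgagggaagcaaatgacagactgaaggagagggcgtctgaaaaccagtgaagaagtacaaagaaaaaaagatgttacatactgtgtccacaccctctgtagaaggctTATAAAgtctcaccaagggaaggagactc
Krtap8-1, chr16:89487953-89488202, minus strand: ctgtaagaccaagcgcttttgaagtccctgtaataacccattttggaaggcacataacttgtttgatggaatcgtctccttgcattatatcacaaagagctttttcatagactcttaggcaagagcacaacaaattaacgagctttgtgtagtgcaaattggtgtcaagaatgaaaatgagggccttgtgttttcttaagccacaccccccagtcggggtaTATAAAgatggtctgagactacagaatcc
Krt84, chr15:101532821-101533070, minus strand: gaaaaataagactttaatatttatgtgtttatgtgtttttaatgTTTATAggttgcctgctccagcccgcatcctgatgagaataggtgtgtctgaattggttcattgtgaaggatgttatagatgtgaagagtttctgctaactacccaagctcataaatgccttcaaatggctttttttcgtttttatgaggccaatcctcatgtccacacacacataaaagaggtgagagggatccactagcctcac
Promoter entries were matched for 40 of the 48 members. TATAAA occurred in 34 of these 40 windows (85%), against 12.4% of 32851 promoter windows of the same length. Counting only matches on the gene strand that begin 40 to 20 bases before the start, the shares were 25 of 40 (62.5%) and 1.99%. Krt71, Krt31 and Krtap8-1 each carried such a match, at 40, 29 and 29 bases, and the match of Krt84 lay 206 bases before its start on the other strand. CTTTGNT occurred in 8 of 40 windows (20%) against 16% of all windows, CTCGTAAA in 2 (5%) against 0.11%, and CAATAAA in none of the 40 against 4.2%. No matches to different motifs overlapped in these windows. Members of a cluster share sequence by descent, so their windows are not independent, and a match is a description of the letters only.

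The most visible feature of the members was how far control mice of 1 group differed. Summed over the 48 members, WT control mice 1, 2 and 3 had 1565, 24.3 and 917 CPM, and Lcn2-/- control mice 1, 2 and 3 had 115, 9170 and 2399 CPM. WT IMQ mice had 27.7, 20.6 and 76.3 CPM, and Lcn2-/- IMQ mice had 15.6, 20.03 and 31.1 CPM. The highest mouse therefore stood 64.3 times above the lowest in WT control and 79.6 times in Lcn2-/- control, against 3.70 times in WT IMQ and 1.99 times in Lcn2-/- IMQ. The group means were 835 ± 774 CPM (SD, n = 3) in WT control, 3895 ± 4709 CPM (SD, n = 3) in Lcn2-/- control, 41.5 ± 30.3 CPM (SD, n = 3) in WT IMQ and 22.2 ± 7.97 CPM (SD, n = 3) in Lcn2-/- IMQ. WT control 2 lay within the range of the IMQ mice, so the groups overlapped among WT mice. As a share of all counts, the members made up 0.990% of the library of Lcn2-/- control 2 and 0.00250% of that of WT control 2.

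**Figure D1:**
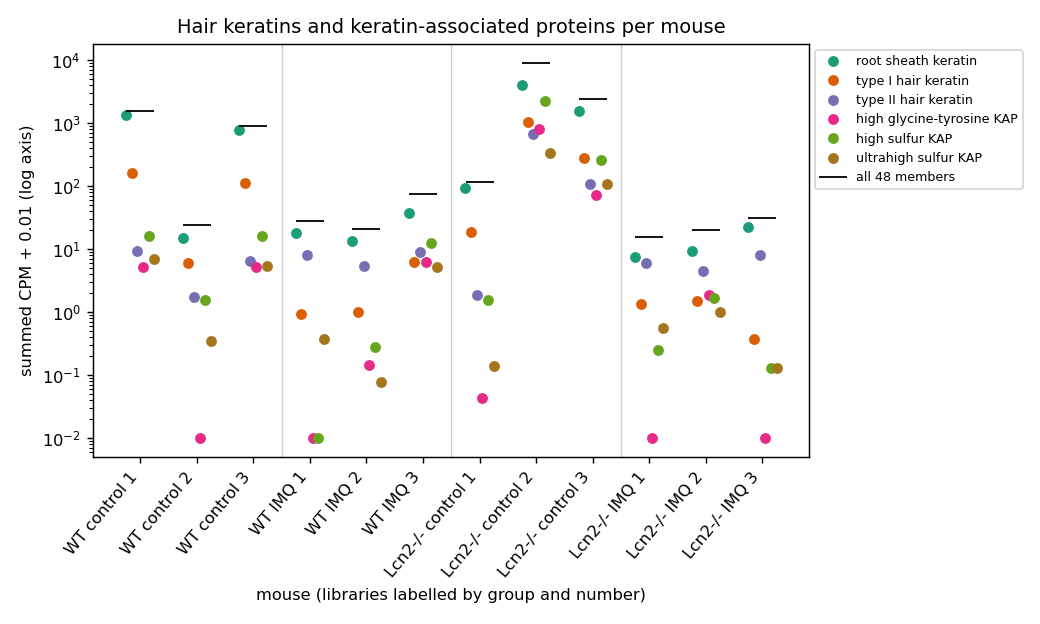
Summed level of each class of members (coloured points) and of all 48 members (black bars) in each of the 12 mice, as CPM plus 0.01 on a log axis. Control mice of a group spread over up to 79.6 times, and all 6 IMQ mice stay at or below 76.3 CPM.

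The order of the control mice was shared by nearly all members. Among Lcn2-/- control mice, mouse 2 was highest, mouse 3 next and mouse 1 lowest for 48 of 48 members. Among WT control mice, mouse 2 was the single lowest for 43 of 48 members, while the highest was mouse 1 for 31 members and mouse 3 for 14. Over all 12 mice, Lcn2-/- control 2 was the highest for 47 members, the exception being Krt84.

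Which members were counted at all was partly ordered among the control mice. With 10 or more reads as the mark, WT control 2 had 8 members, namely Krt32, Krt35, Krt36, Krt75, Krt82, Krt83, Krt84 and Krtap3-2. Lcn2-/- control 1 had these 8 and in addition Krt71 and Krt73, the inner root sheath keratins. All 10 were also counted in WT control 3 (30 members) and in WT control 1 (37 members), and those mice shared 25. Lcn2-/- control 2 and 3 had all 48. The IMQ mice had 4, 4 and 31 members in the WT group and 5, 8 and 3 in the Lcn2-/- group. The 31 of WT IMQ 3 did not include Krt32, Krt35, Krt36 and Krtap3-2, which had 4, 9, 1 and 3 reads there. That mouse therefore did not follow the order of the control mice. Krt75, a keratin of the companion layer, and Krt84, a hair keratin best known from the tongue papillae, were the 2 members with 10 or more reads in every mouse.

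**Figure D2:**
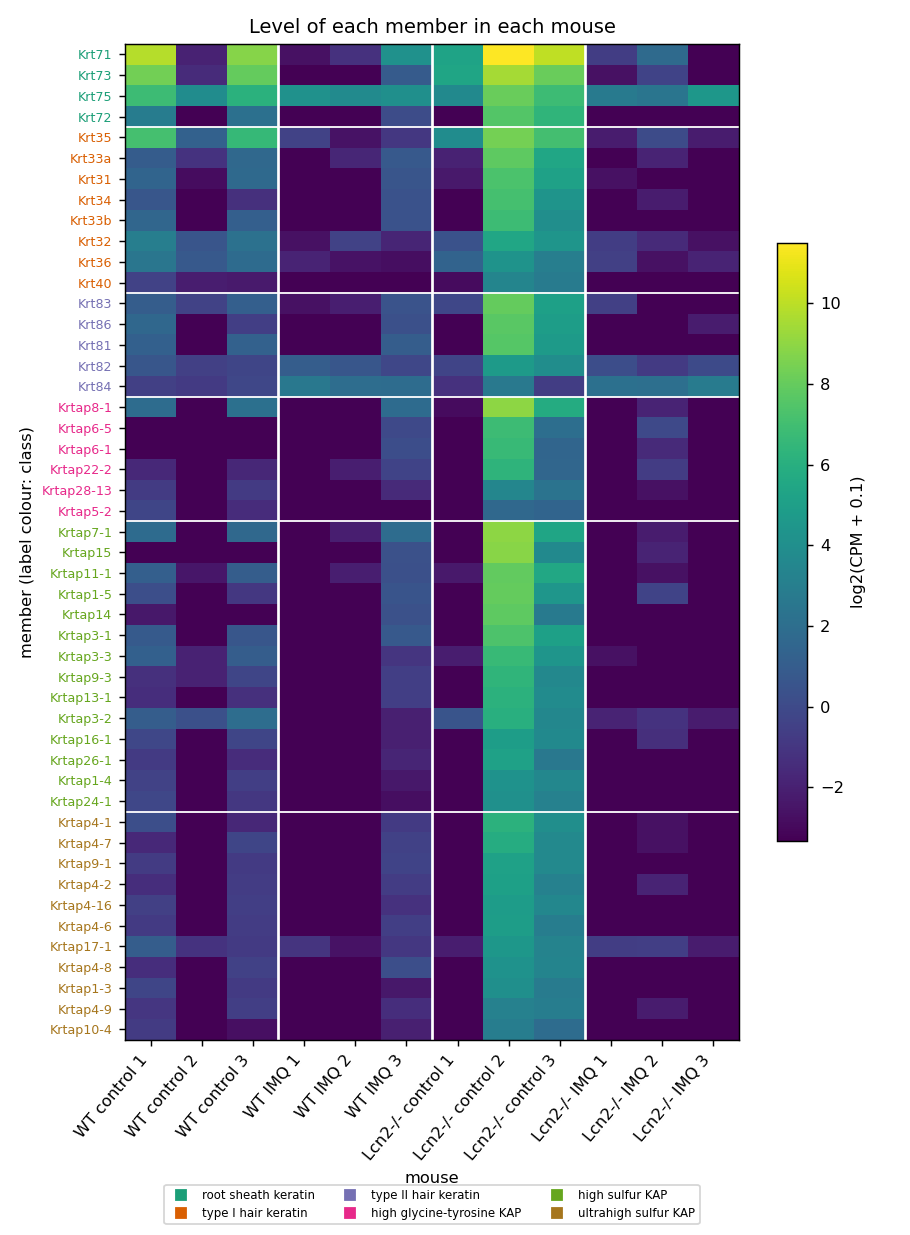
Level of each of the 48 members (rows, label colour by class) in each of the 12 mice (columns), as log2(CPM + 0.1). Krt71, Krt73, Krt75 and Krt35 are high in 4 control mice, while Krt72, most hair keratins and KAPs are high only in Lcn2-/- control 2 and 3.

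The root sheath keratins carried most of the signal. Krt71, which assembles the filaments of the inner root sheath, was at 921, 0.172 and 444 CPM in WT control mice 1 to 3 and at 38.9, 2876 and 1095 CPM in Lcn2-/- control mice. In WT IMQ mice it was at 0.0605, 0.336 and 18.1 CPM and in Lcn2-/- IMQ mice at 0.549, 3.39 and 0 CPM. WT control 2, with 4 reads, thus had less Krt71 than 2 of the 3 WT IMQ mice. Those were WT IMQ 2 with 5 reads, a difference near the limit of counting, and WT IMQ 3 with 375. Krt73, a second sheath keratin, was at 328, 0.258 and 249 CPM in WT control, 41.4, 719 and 281 CPM in Lcn2-/- control, 0, 0 and 1.84 CPM in WT IMQ and 0.0610, 0.701 and 0 CPM in Lcn2-/- IMQ mice. Krt72, also of the inner root sheath, had no count in WT control 2 and Lcn2-/- control 1 and reached 182 CPM in Lcn2-/- control 2. It was at 82.1 CPM in Lcn2-/- control 3, but only at 7.43 and 4.25 CPM in WT control 1 and 3. Krt75 varied far less, from 12.8 to 276 CPM in the 6 control mice and from 5.31 to 22.5 CPM in the 6 IMQ mice.

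Among type I hair keratins, Krt35, the keratin of the matrix and lower cortex, was the most abundant. It was at 137, 2.36 and 97.2 CPM in WT control, 14.4, 343 and 131 CPM in Lcn2-/- control, 0.666, 0.0671 and 0.435 CPM in WT IMQ and 0.122, 0.934 and 0.120 CPM in Lcn2-/- IMQ mice. Every IMQ mouse was below every control mouse. Krt31 and Krt33a, keratins of the hair cortex that appear later, behaved differently between controls. Krt31 was at 2.68, 0.0429 and 3.29 CPM in WT control and 0.0984, 154 and 35.2 CPM in Lcn2-/- control mice. Krt33a was at 1.89, 0.343 and 3.08 CPM in WT control and 0.164, 223 and 42.8 CPM in Lcn2-/- control mice. WT control 1 and 3 therefore held Krt35 at a level near that of Lcn2-/- control 3 while their Krt31 lay more than 10 times below it.

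The type II hair keratins Krt81, Krt83 and Krt86, the partners of those cortical keratins, followed Krt31. In Lcn2-/- control 2 they reached 190, 251 and 204 CPM and in Lcn2-/- control 3 they reached 26.7, 34.7 and 30.8 CPM. In WT control 1 they were at 2.26, 1.98 and 2.95 CPM. Krt82, a keratin of the hair cuticle, was at 1.48, 0.601 and 0.743 CPM in WT control and 0.722, 26.9 and 15.2 CPM in Lcn2-/- control mice, and stayed between 0.467 and 1.94 CPM in the 6 IMQ mice.

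KAPs were high in 2 of the 12 mice. Krtap8-1, a high glycine-tyrosine KAP, was at 503 CPM in Lcn2-/- control 2 and 54.9 CPM in Lcn2-/- control 3, against at most 4.30 CPM in any other mouse. Krtap6-5 and Krtap6-1, of the same class, were at 113 and 101 CPM in Lcn2-/- control 2 and 4.01 and 2.77 CPM in Lcn2-/- control 3, and at 0 in all WT control mice. Among high sulfur KAPs, Krtap7-1 reached 495 and 41.6 CPM, Krtap15 reached 456 and 12.8 CPM and Krtap11-1 reached 240 and 46.2 CPM in the same mice. Krtap7-1 holds 29.9% glycine plus tyrosine and missed the 35% that defines the glycine-tyrosine class here. Krtap5-2 and Krtap28-13 passed it with 36.0% and 42.0%, although they also hold 34.6% and 42.8% cysteine, above the mark for ultrahigh sulfur. The ultrahigh sulfur KAPs Krtap4-1, Krtap4-7 and Krtap9-1 reached 73.4, 58.4 and 35.7 CPM in Lcn2-/- control 2 and 15.9, 12.3 and 12.3 CPM in Lcn2-/- control 3.

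Per kilobase of exon, which allows genes of different length to be compared within a mouse, the leading members differed between mice. In Lcn2-/- control 2 they were Krt71 at 1315, Krtap8-1 at 876, Krtap7-1 at 796 and Krtap15 at 433 CPM per kb. In WT control 1 they were Krt71 at 421, Krt73 at 151, Krt35 at 57.2 and Krt75 at 34.2 CPM per kb, and the highest KAP, Krtap8-1, was at 6.43. In Lcn2-/- control 1 they were Krt73 at 19.1, Krt71 at 17.8 and Krt35 at 6.02 CPM per kb.

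The make-up of the signal shifted accordingly. KAPs gave 37.0% of the members' counts in Lcn2-/- control 2 and 18.3% in Lcn2-/- control 3, against 1.80% and 2.89% in WT control 1 and 3 and 1.51% in Lcn2-/- control 1. Root sheath keratins gave 44.2% and 65.4% in the first pair, and 87.4%, 83.9% and 80.8% in the other 3. Set against WT control 1, Lcn2-/- control 2 had 2.96 times the summed CPM of root sheath keratins, 6.54 times that of type I and 73.0 times that of type II hair keratins, 157 times that of high glycine-tyrosine, 141 times that of high sulfur and 47.8 times that of ultrahigh sulfur KAPs. The type I sum mostly reflects Krt35, which gave 137 of the 160 CPM of that class in WT control 1. The median ratio of single members over WT control 1 was 28.2 for type I and 69.0 for type II hair keratins. Set against Lcn2-/- control 3, Lcn2-/- control 2 had 2.58 times the root sheath keratins, 3.71 times type I and 6.28 times type II hair keratins, 11.3 times high glycine-tyrosine, 8.62 times high sulfur and 3.13 times ultrahigh sulfur KAPs. The largest member ratios of this second pair were 36.7 for Krtap6-1, 35.7 for Krtap15, 32.2 for Krtap14, 28.8 for Krtap22-2 and 28.2 for Krtap6-5. The smallest were 1.19 for Krtap4-9 and 1.19 for Krtap5-2. Each ratio compares 2 animals and has no replicate check.

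**Figure D3:**
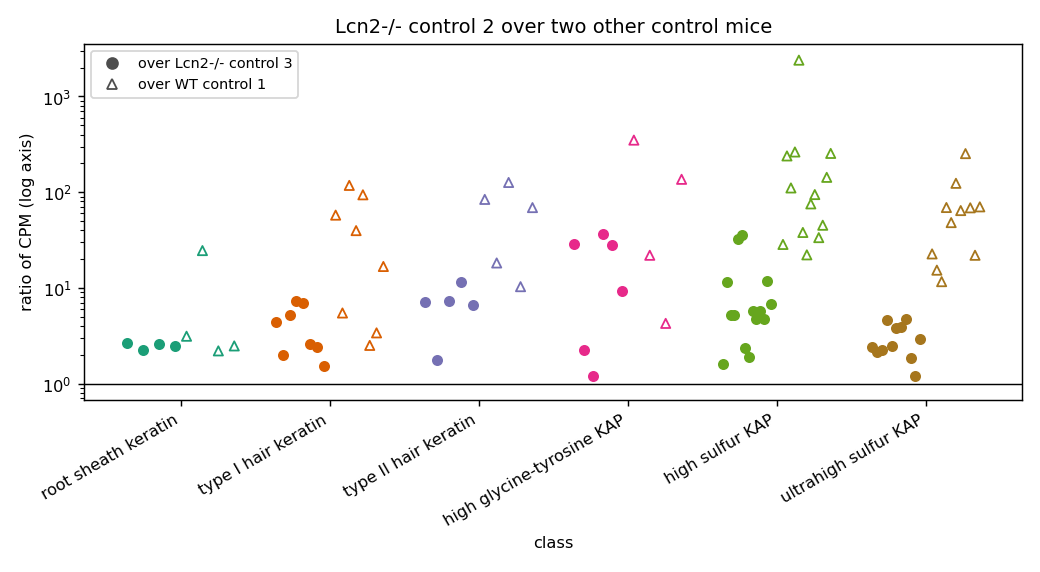
Ratio of CPM for each member, Lcn2-/- control 2 over Lcn2-/- control 3 (filled circles) and over WT control 1 (open triangles), by class on a log axis. Filled ratios of root sheath keratins lie between 2.22 and 2.63 and the median of the 31 KAPs is 4.74; 3 KAPs at 0 in WT control 1 have no triangle.

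Treatment with IMQ was compared with vehicle within each genotype by edgeR's quasi-likelihood test on all 12 mice, with Benjamini-Hochberg adjustment over 18529 genes. A gene was called with an adjusted p under 0.05 and a fold change above 2. The low-count filter passed 45 of the 48 members, and Krtap28-13, Krtap26-1 and Krtap10-4 were not tested. Many members had passed both filters through the high control mice alone, so the counts of called members are read against the background and support no direction.

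Among WT mice, IMQ called 5 members lower and 1 higher, where 7.77% of all tested genes were called lower and 7.15% higher. The 5 were Krt73, Krt35, Krtap3-2, Krt36 and Krt32, of which Krt32 is named after its values were seen, and the member called higher was Krt84, also named afterwards. Krt35 fell by 7.60 on the log2 scale (SE 1.79, adjusted p = 0.0109 by edgeR), from a mean of 78.8 to 0.389 CPM. Krt73 fell by 8.10 (SE 2.16, adjusted p = 0.0191 by edgeR), although WT control 2 overlapped WT IMQ 3. Krtap3-2, a high sulfur KAP and the only KAP with 10 or more reads in WT control 2, fell by 5.19 (SE 1.68, adjusted p = 0.0383 by edgeR), from 1.94, 1.12 and 3.88 CPM to 0, 0 and 0.145 CPM. Its WT IMQ group held 3 reads in all, which gives a ratio of means of 47.8 with a counting interval of 16.3 to 232. Krt36, a keratin of the cortex, fell by 5.12 (SE 1.02, adjusted p = 0.00351 by edgeR) from 5.63, 1.67 and 3.45 CPM to 0.182, 0.0671 and 0.0484 CPM.

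Krt71, the most abundant member, did not pass, nor did the leading KAPs. Krt71 was 6.16 lower on the log2 scale (SE 2.45, adjusted p = 0.0868 by edgeR). WT control 2, with 4 reads, lay below WT IMQ 2 with 5 and WT IMQ 3 with 375. Krtap8-1 differed by -1.02 (SE 2.17, adjusted p = 0.760 by edgeR) and Krtap7-1 by -0.63 (SE 2.18, adjusted p = 0.859 by edgeR). Over the 45 tested members the median log2 fold change was -1.47, against -0.02 over all tested genes, and 35 members lay below 0. In WT mice without WT IMQ 3 the median was -5.70 and only Krt36 was called. Leaving out any of the other WT mice left 2 to 4 members called lower, 2 without WT control 1 or WT IMQ 1, 3 without WT control 3 or WT IMQ 2 and 4 without WT control 2.

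WT IMQ 3 stood apart from the other WT IMQ mice. It had 31 members at 10 or more reads where each of the others had 4, and it was the highest WT IMQ mouse for 40 members. For 13 members it exceeded every WT control mouse, among them Krtap15 (1.16 CPM), Krtap6-1 (1.02 CPM) and Krtap6-5 (0.871 CPM), which were at 0 in all WT control mice. Relative to Lcn2-/- control 2, its members lay at a median of 0.723%, with quartiles of 0.498% and 1.10%, and the medians by class ran from 0.526% for high sulfur to 1.87% for ultrahigh sulfur KAPs. Lcn2-/- IMQ 2, the mouse with 8 members at 10 or more reads, had a median of 0.0296%. The cause of this low level was not tested.

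Among mice labelled Lcn2-/-, IMQ called 41 members lower and none higher, against 6.27% and 7.38% of all tested genes. The members called lower were all 8 type I hair keratins, 4 of 5 type II hair keratins, all 4 root sheath keratins, 2 of 5 tested high glycine-tyrosine KAPs, all 13 tested high sulfur KAPs and all 10 tested ultrahigh sulfur KAPs. The 4 not called were Krt84, Krtap5-2, Krtap6-1 and Krtap6-5. The median log2 fold change was -10.28, or -8.65 with the 16 members at 0 in every Lcn2-/- IMQ mouse set to their lower bound, against -0.05 over all tested genes. In a fit of only the 6 compared mice, which tested 12 members, the median was -6.91. A lower bound is computed against 3 reads over the group.

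Krt35 fell by 8.65 on the log2 scale (SE 1.83, adjusted p = 0.00795 by edgeR), from a mean of 163 to 0.392 CPM. Krt71 fell by 9.97 (SE 2.94, adjusted p = 0.0330 by edgeR), from a mean of 1337 to 1.31 CPM. Krt72, Krtap14 and Krt81, the called members with the largest fitted changes, had no read in any Lcn2-/- IMQ mouse. Against the mean of the controls they were at least 1475-fold, 1274-fold and 1209-fold lower. They had no read in Lcn2-/- control 1 either, so these bounds rest on Lcn2-/- control 2 and 3. Krtap8-1 had 3 reads in the IMQ group, all in Lcn2-/- IMQ 2, against 10684 in the controls. The ratio of means was 3186, with a counting interval of 1090 to 15450. Lcn2-/- control 1 held 1 of the control reads, so this ratio does not describe that mouse. Groups did not overlap for 11 of the 45 tested members, namely Krt31, Krt32, Krt35, Krt36, Krt40, Krt71, Krt73, Krt83, Krtap3-2, Krtap3-3 and Krtap11-1. All 11 were lower, where 22.8% of all tested genes were lower without overlap, so the members' count lies near the background. Krt40, a keratin of the cuticle, was apart by 1 read in Lcn2-/- control 1 against none in the IMQ mice. Krt31, Krtap11-1 and Krtap3-3 were also apart by few reads. They had 3, 3 and 4 reads in Lcn2-/- control 1, against 1 read each in the highest IMQ mouse. For the tested members outside these 11, except Krt84, Lcn2-/- control 1 reached into the range of the IMQ mice.

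That count rested on the mice that entered the fit. It was 47 of 48 tested without Lcn2-/- control 1, 18 without Lcn2-/- control 2, 25 without Lcn2-/- control 3, and 6, 6 and 5 without Lcn2-/- IMQ 1, 2 and 3. Krt32, Krt35, Krt36 and Krtap3-2 were called lower in each of the 12 fits in which they were tested, Krt82 in 11 and Krt73 in 10. In WT mice Krt36 was called lower in 12 of 12 fits and Krt35 in 11.

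**Figure D4:**
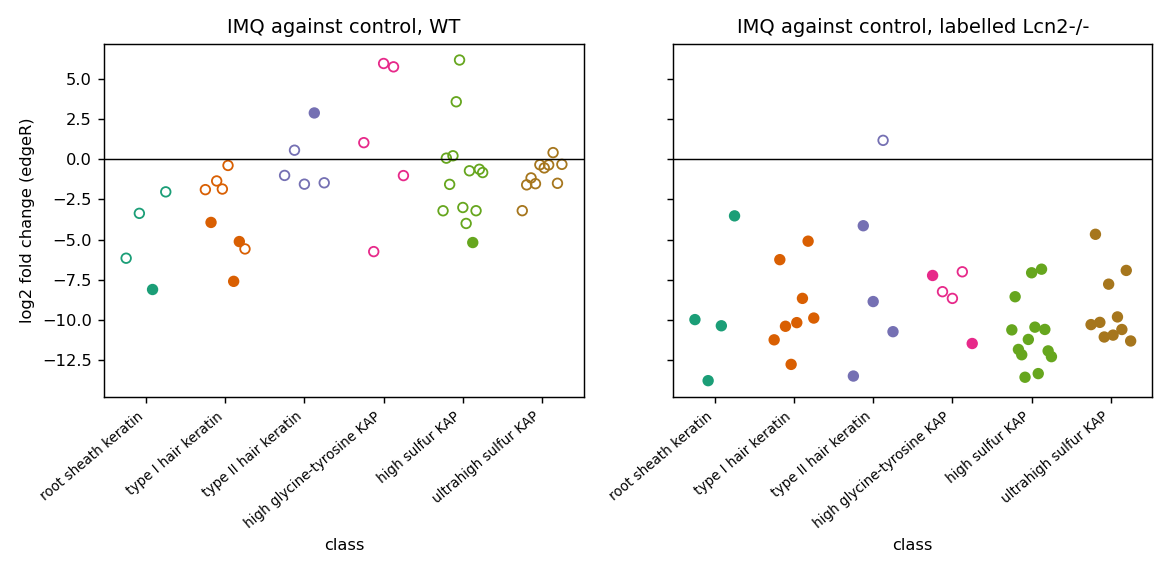
Log2 fold change of each tested member under IMQ, by class, in WT mice (left) and in mice labelled Lcn2-/- (right), filled where called. In WT mice 5 members are called lower and 1 higher, in mice labelled Lcn2-/- 41 lower; fitted values of members at 0 in a group depend on the prior count of the fit.

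Krt84 was the member called higher in WT mice. Its level was 0.600, 0.472 and 0.797 CPM in WT control and 6.11, 3.83 and 3.73 CPM in WT IMQ mice, with no overlap, a rise of 2.87 on the log2 scale (SE 0.90, adjusted p = 0.0329 by edgeR). In Lcn2-/- control mice it was at 0.328, 6.17 and 0.535 CPM and in Lcn2-/- IMQ mice at 4.33, 4.09 and 7.01 CPM. The difference there was 1.17 (SE 0.81, adjusted p = 0.314 by edgeR), and without Lcn2-/- control 2 it was 3.58 (adjusted p = 0.000743 by edgeR). The WT call was held in 5 of 12 fits. The stress keratins Krt6a, Krt6b and Krt16, which are induced in inflamed and wounded epidermis, rose in both genotypes. In WT mice those rose by 6.39, 9.27 and 7.92 on the log2 scale, and in mice labelled Lcn2-/- by 4.62, 8.05 and 5.87, all called. Krt17, the other stress keratin listed, was not called, at means of 711 and 1256 CPM in WT control and IMQ and 844 and 552.5 CPM in Lcn2-/- control and IMQ mice. The part of these keratins in the level of Krt84 was not tested.

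The control mice of the genotypes were compared next. None of the members was called between Lcn2-/- control and WT control by edgeR, where 0.0054% of tested genes were called higher and 0.0054% lower. At an unadjusted p under 0.05 and the same fold threshold, 37 of 45 members were higher and none lower, where 1.35% of tested genes were higher and 0.928% lower. The median log2 difference was 5.10, against 0.00 over all tested genes. The smallest p values were those of Krt82, with a difference of 3.91 (SE 0.95, adjusted p = 0.394 by edgeR), and Krt83, with 5.91 (SE 1.64, adjusted p = 0.515 by edgeR). For both, Lcn2-/- control 1 lay within the range of the WT control mice. Without Lcn2-/- control 1, 5 members were called higher, and DESeq2 on all mice called 4.

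No difference between the genotypes was called under IMQ either. In Lcn2-/- IMQ against WT IMQ mice edgeR called no member, with no member at an unadjusted p under 0.05 and a fold change above 2. Of all tested genes 0.766% were called higher and 0.739% lower, and 3.1% and 3.35% at the unadjusted p. The smallest p values were those of Krtap4-8 (adjusted p = 0.388 by edgeR), with 0, 0 and 1.06 CPM in WT IMQ and no read in Lcn2-/- IMQ mice, and Krt36 (adjusted p = 0.476 by edgeR). The median log2 difference of -2.77 became 0.02 without WT IMQ 3.

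The IMQ responses of the genotypes were set against each other by the interaction term of the same fit. No member was called, where 1.07% of tested genes were called higher and 0.572% lower. At the unadjusted p, 17 members were lower and none higher, against 4.91% and 6.06% of tested genes. Krt82 had the smallest p, with a difference of -4.69 (SE 1.35, adjusted p = 0.0821 by edgeR), and Krtap7-1 the next, with -11.28 (SE 4.22, adjusted p = 0.146 by edgeR). The counts of 41 and 5 are therefore not shown to reflect different responses. Without Lcn2-/- control 1 the interaction called 5 members lower, and DESeq2 called 7.

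Other genes of the follicle that are not members showed which parts of the growing follicle moved with the members. Krt25, Krt27 and Krt28, the type I partners of the sheath keratins, and trichohyalin (Tchh), which fills inner sheath cells, had the order of control mice seen for the members. Krt25 was at 876, 0.172 and 478 CPM in WT control, 47.5, 2344 and 895 CPM in Lcn2-/- control, 0.242, 0 and 12.8 CPM in WT IMQ and 0.0610, 2.34 and 0 CPM in Lcn2-/- IMQ mice. Padi3, the enzyme that citrullinates trichohyalin, was at 36.7, 0.601 and 20.97 CPM in WT control and 2.36, 133 and 62.5 CPM in Lcn2-/- control mice. Of the 11 inner root sheath partners, IMQ called 2 lower and 1 higher in WT mice and 8 lower and 1 higher in mice labelled Lcn2-/-. The one that rose in both was Tgm3, a transglutaminase that interfollicular epidermis also makes.

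Several of the genes listed for the hair shaft followed the members less steeply, and others did not follow them. Hoxc13, a homeobox factor that drives hair keratin genes, was at 45.4, 7.13 and 41.4 CPM in WT control and 13.0, 78.8 and 41.4 CPM in Lcn2-/- control mice, and fell with IMQ by 3.33 (SE 0.76, adjusted p = 0.00784 by edgeR) and 4.67 (SE 0.82, adjusted p = 0.00251 by edgeR). Msx2, a homeobox factor of the matrix, fell by 5.15 and 4.81, and Lef1, the transcription factor of Wnt signalling in the precortex, by 3.39 and 3.80. S100a3, a calcium-binding protein of the cuticle, was at 18.6, 0 and 15.1 CPM in WT control and 1.71, 138 and 63.5 CPM in Lcn2-/- control mice. Foxn1, which is also active in interfollicular epidermis, differed by 0.73 and -1.10, with no call. Of the 15 hair shaft partners, 5 were called lower and 2 higher (Psors1c2 and Prdm1) in WT mice. In mice labelled Lcn2-/- 8 were called lower and 1 higher (Ctsl). Psors1c2 rose from a mean of 5.86 CPM in WT control to 77.3 CPM in WT IMQ mice. Ctsl did not share the members' order of the controls, and Dsc2 stayed between 20.4 and 31.0 CPM in the control mice. Prdm1 shared that order in part. It was lowest of its group in WT control 2 and in Lcn2-/- control 1. Its level was higher in Lcn2-/- control 3 (45.9 CPM) than in Lcn2-/- control 2 (41.4 CPM).

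Shh, the signal made by the matrix of growing follicles, was at 34.98, 3.05 and 32.4 CPM in WT control and 12.2, 38.8 and 18.6 CPM in Lcn2-/- control mice, and at most 0.822 CPM in any IMQ mouse. WT control 1 and 3 thus had Shh near the level of Lcn2-/- control 2 while their KAPs were more than 100 times below it in sum. Of the 14 matrix and growth phase genes, 10 were called lower in WT mice and 10 in mice labelled Lcn2-/-, and 1 (Ovol1) was called higher in WT mice. Most of the 14 shared the members' order of the controls, but Fgf7, Edar, Alx4 and Wnt10a did not. Fgf7 was at 17.9, 29.4 and 13.0 CPM in WT control and 22.1, 14.8 and 19.3 CPM in Lcn2-/- control mice. The pigment genes Tyr, Dct and Pmel, whose products colour the growing shaft, were lowest of the controls in WT control 2, at 5.54, 54.8 and 13.0 CPM, and highest in Lcn2-/- control 2, at 54.3, 274 and 109 CPM. Tyrp1, Mlana, Oca2 and Slc45a2, also on the pigment list, were lowest and highest in the same control mice. Kit and Mitf of that list were not. Kit was at 31.04 CPM in WT control 2 and highest of the controls in Lcn2-/- control 1, at 42.6 CPM. Mitf was at 42.2 CPM in WT control 2 and highest of the controls in WT control 1, at 43.1 CPM. Of 9 pigment genes 3 were called lower with IMQ in WT mice and 5 in mice labelled Lcn2-/-.

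Krt15, a keratin of the bulge, was at 449, 746 and 735 CPM in WT control and 348, 414 and 732 CPM in Lcn2-/- control mice, and so did not share the members' order of the controls. It fell with IMQ by 2.23 (SE 0.44, adjusted p = 0.00355 by edgeR) and 2.13 (SE 0.44, adjusted p = 0.00562 by edgeR). Lgr5, a stem cell gene that is also active in the lower growing follicle, was at 40.5, 12.2 and 42.7 CPM in WT control and 22.9, 58.7 and 41.7 CPM in Lcn2-/- control mice, with the members' order, and fell by 1.86 and 1.98. Cd34, another gene listed for the bulge and resting follicle, had the reverse of the members' order in both control groups. It was at 355, 760 and 233 CPM in WT control and 397, 211 and 267 CPM in Lcn2-/- control mice. With IMQ it was called lower in WT mice only. Of the 13 genes of the bulge and resting follicle, 6 and 7 were called lower in the respective genotypes and none higher.

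**Figure D5:**
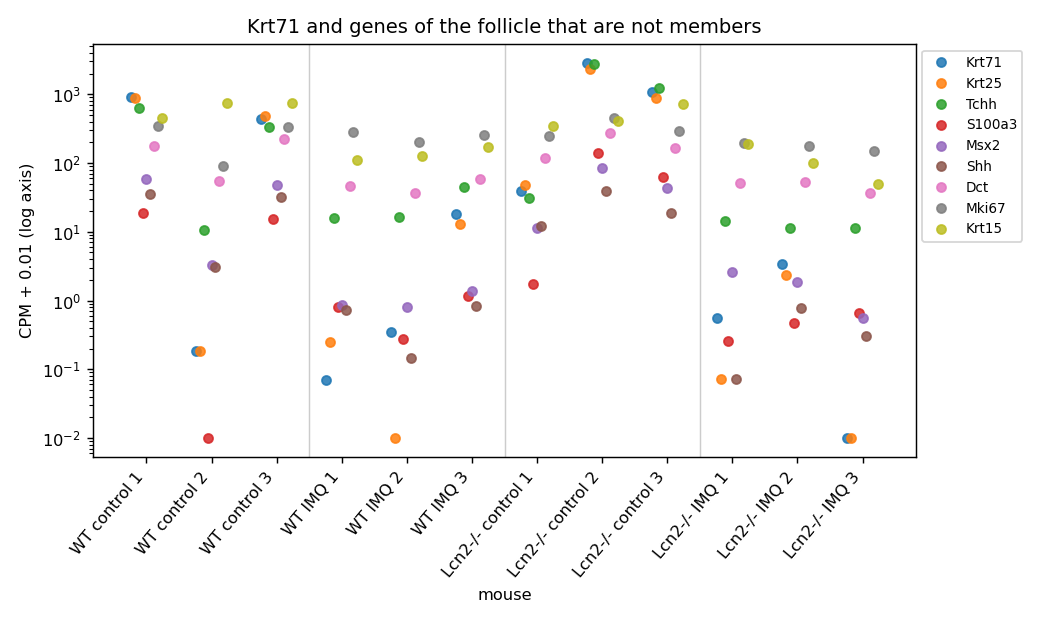
Level of Krt71 and of 8 genes that are not members in each of the 12 mice, as CPM plus 0.01 on a log axis. Krt25, Tchh, S100a3, Msx2 and Shh are lowest of the controls in WT control 2, where Krt15 is at 746 CPM.

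Values of other skin compartments moved with the same comparisons. The summed level of 6 proliferation genes was 287 CPM in WT control 2 and between 649 and 1076 CPM in the other control mice, with Mki67 at 90.2 CPM in the former and at least 245 CPM in the latter. Under IMQ no proliferation gene was called in either genotype. In the IMQ comparisons 8 of 12 interfollicular epidermis genes rose in each genotype, as did 5 and 7 of 8 leukocyte genes, with 1 leukocyte gene lower in WT mice. Of 8 sebocyte genes 6 and 3 were lower, with Fabp5 higher in each, and of 8 skeletal muscle genes 6 and 1 were lower. Summed muscle genes lay between 14760 and 15110 CPM in WT control and 6251 and 7665 CPM in WT IMQ mice, and between 7237 and 13400 CPM and 6369 and 9531 CPM in the groups labelled Lcn2-/-. Lcn2-/- control 2, the mouse with the highest members, had the lowest muscle sum of the controls. Of the remaining lists, the called genes with IMQ in WT mice and in mice labelled Lcn2-/- were, of 4 stress keratins, 3 and 3 higher, of 7 fibroblast genes 1 lower and 1 higher, of 6 adipocyte genes 1 and 1 lower, and of 5 endothelial genes 1 and 4 higher. Of the 8 retina genes 2 were tested and none was called. Between the control groups no gene of any of these lists was called. Between the IMQ groups Tcf7l1, Col1a1, Col1a2 and Col3a1 were called higher and Fabp5 lower in mice labelled Lcn2-/-, and the same 4 genes were called in the interaction. The part of these compartments in the level of the members was not tested.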

How the data were processed

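Total RNA of mouse back skin was sequenced after ribosomal RNA depletion in 12 libraries. The authors deposited raw counts, whole numbers of reads per Ensembl gene and library. Per the labels, HISAT and the build mm8 were named in the submitters' processing notes. The counting tool, its annotation and the strand setting are not given in the sources used here. Names, exon lengths, positions and coding composition came from GENCODE M21 (GRCm38), which held 91.5% of the identifiers, and 0.567% of the counts fell on identifiers without a name.

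The members and gene lists were chosen with earlier results of these data known. KAPs with 35% or more glycine plus tyrosine were called high glycine-tyrosine, of the others those with 30% or more cysteine ultrahigh sulfur, and the rest high sulfur. Counts were tested with edgeR 4.0.16 (limma 3.58.1, R 4.3.3) with TMM scaling, filterByExpr and a robust quasi-likelihood fit of 4 group means, and p values were adjusted by Benjamini-Hochberg. The study's own tool, DESeq2 (1.42.0 here), was an alternative, as were other size factors, other count filters, a block for the replicate number and leaving out each mouse. The fit was also run on simulated counts, with levels and spreads taken from the main fit. Each simulated gene had the same spread in all groups, so the unequal spread of the members was not checked. Replicate numbers label different animals, and deviations of same-numbered mice correlated above 0.1 in 1 of 18 pairs. None of the 12 pairs of libraries within a group agreed within sampling noise (lowest chi-square per gene 13.1). With 3 mice per group, each p value of the main fit sets a difference against a spread between mice. That spread was estimated for each gene over all 12 mice and moderated across genes. For the members it pools control groups that spread widely with IMQ groups that spread less. The scale of 3 reads used for bounds and the counting intervals (exact Poisson, 95%) cover counting error only. Named members were the 3 most abundant tested members of each class, the 3 called members with the largest change or the 2 smallest p values in each comparison, and those next to the count rule. Other members are named where the text says so or where a count of 5 or fewer, a set of mice or a ratio singled them out after their values were seen. Figures were drawn with matplotlib 3.10.9.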

Additional observations from a re-analysis of the deposited data

How the results depend on the processing

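In WT mice, IMQ called 1 member higher and 5 lower. DESeq2 called 3 higher and 6 lower, with no filter on low counts 0 were higher and 2 lower, and with at least 10 reads in every library, which left 2 members to test, 0 were lower. Leaving out 1 mouse gave 0 to 1 higher and 1 to 4 lower. In mice labelled Lcn2-/- the count of 41 lower became 8 with no filter, 1 of 2 tested with at least 10 reads in every library and 7 of 12 tested in a fit of only the 6 compared mice, and leaving out 1 mouse gave 5 to 47 lower and 0 to 1 higher. With a replicate block, which same-numbered mice did not warrant, 0 members were called higher in WT mice and 13 lower in mice labelled Lcn2-/-. Between the IMQ groups DESeq2 called 1 member lower (Krtap14), between the controls 4 higher, and in the interaction 7 lower, against 0 by edgeR, and leaving out 1 mouse gave 0 to 5 higher between the controls and 0 to 5 lower in the interaction. Other size factors and plain library sizes moved no count or sum by more than the limits used. With at least 10 reads in every library the medians of the 2 members left, Krt75 and Krt84, were -1.18 for IMQ in mice labelled Lcn2-/-, -0.15 between the IMQ groups, 1.44 between the controls and -1.59 in the interaction, whose median over 45 members was -8.98 with all 12 mice and -4.29 without WT IMQ 3, over 48. The rule of 10 reads in at least 1 library would take 74 genes, and in at least 6 libraries 10. No named gene with a call changed direction in any alternative. The cause of these changes was not tested, apart from the smaller number of members tested where stated. Low depth limits the lowest members: with 1 to 3 reads in a group, only the counting interval is given.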
